A study of Mus musculus with 8 samples.

Results

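Respiratory complex I (NADH:ubiquinone oxidoreductase) is built from nuclear and mitochondrial genes, and the nuclear subunit genes were taken as every gene whose deposited name is Ndufa, Ndufab, Ndufb, Ndufc, Ndufs or Ndufv followed by a number. This gave 37 of 55421 genes in the joint count table, all on the nuclear chromosomes and all annotated as protein-coding. Assembly factors (Ndufaf) and names ending in -ps fell outside this choice, and so did Ndufb1, which the table carries only as Ndufb1-ps. Bulk RNA sequencing of total RNA from mouse small intestine had been done in 8 libraries, in 2 groups of 4. Mice of both groups had the wild-type genotype and were kept at 7% oxygen for 7 days. The Hypoxia group had only the low oxygen, and the Hypoxia+Nitrate group also received 4 mM nitrate. No source used here gives strain, age, sex, the route of nitrate or whether each library came from its own animal, and all 8 libraries come from mice at low oxygen. P-values therefore measure the spread between these libraries, which may be technical.

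Complex I is the main entry of electrons into the respiratory chain. It oxidises NADH made in the mitochondrial matrix, passes the electrons along a row of iron-sulfur clusters to ubiquinone, and couples this to proton pumping across the inner membrane. It has a hydrophilic arm in the matrix, divided into an N module that binds NADH and a Q module that reduces ubiquinone, and a membrane arm, the P module, whose pumping core is encoded by the mitochondrial genome. The core subunits carry the chemistry and are shared with bacteria, while the supernumerary subunits surround them and are needed for assembly and stability. Absorptive enterocytes of the small intestine are rich in mitochondria, and low oxygen is known to lower respiration in many cell types through hypoxia-inducible factors.

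The libraries of the 2 groups differed in several ways at once. Total counts ran from 5345377 to 21835865 in Hypoxia and from 8662279 to 63943036 in Hypoxia+Nitrate. Those on nuclear protein-coding genes ran from 2608226 to 3489585 and from 5004491 to 15891314. Ribosomal DNA took 75.7%, 73.7%, 7.06% and 45% of counts in Hypoxia 1 to 4. In Hypoxia+Nitrate 1 to 4 it took 2.33%, 22%, 4.95% and 3.42%. Genes for odorant, vomeronasal and trace-amine receptors, taken as silent in gut, gave a background density of counts per kb of exon. The background expected from it made up 39% to 63.8% of the counts on nuclear protein-coding genes in Hypoxia, 23.2% and 20% in Hypoxia+Nitrate 2 and 3, and 2.92% and 2.76% in Hypoxia+Nitrate 1 and 4. The latter pair also stood apart by its mitochondrial genome, which took 64.9% and 50% of counts against 0.582% to 8.15% in the other 6 libraries. The 6 enterocyte markers summed to 40.6 to 264 CPM (counts scaled to library size with TMM factors) in Hypoxia and 453 to 22917 CPM in Hypoxia+Nitrate, with no marker at 0 throughout a group. In Hypoxia 3 and 4 that sum was only 1.65 and 1.59 times the expected background, so the enterocyte markers were near background there, while those of smooth muscle stood at 3.17 and 13.7 times it and those of Paneth cells at 4.29 and 7.33 times. All 6 enterocyte and all 6 smooth muscle markers were called higher in Hypoxia+Nitrate (edgeR, 11.7% of all genes tested), but 0 of either list without Hypoxia 1 or without Hypoxia 4, and 1 of each without Hypoxia 3. Over all genes these fits called, in this order, 1932, 4434 and 4235, against 8653 with all 8 libraries. The 4 markers of islets, the tissue that the RNA isolation protocol names, summed to 9.15 to 13.2 CPM in Hypoxia and 1.56 to 17.4 CPM in Hypoxia+Nitrate. The part of the cell mixture and of the background in the results was not tested beyond the values given beside them, and in bulk tissue fewer cells of a type and less RNA per cell cannot be told apart.

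Nearly the whole set of nuclear complex I genes was higher in Hypoxia+Nitrate. Of the 37 genes, all of which passed the filter on low counts, 34 rose and 0 fell (edgeR quasi-likelihood test, Benjamini-Hochberg adjusted p under 0.05 over 35431 genes tested). Among all genes tested, 11.7% were called higher and 12.7% lower. At an unadjusted p under 0.05, edgeR gave 36 higher and 0 lower, and by adjusted p DESeq2 gave 34 and 0 and limma-voom 32 and 0. Over all genes these settings took in, in this order, 14442, 14689 and 15818 in either direction, against 8653 by adjusted p in edgeR. The median log2 fold change of the members was 3.20, against −0.58 for all genes tested, and the members ran from 0.48 (Ndufb2) to 3.96 (Ndufb9). Of the 37, 24 had a log2 fold change of at least 3, and the median standard error was 0.68. Ndufb2, Ndufs1 and Ndufs5 were not called. The CPM values of the groups did not overlap, with Hypoxia+Nitrate higher, for 32 of the 37, as for 12.0% of all genes tested. A rise of this kind was not particular to complex I. Of 77 cytosolic ribosomal protein genes tested in the same fit, 75 were called higher and 1 lower, with a median of 3.70.

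**Figure D1:**
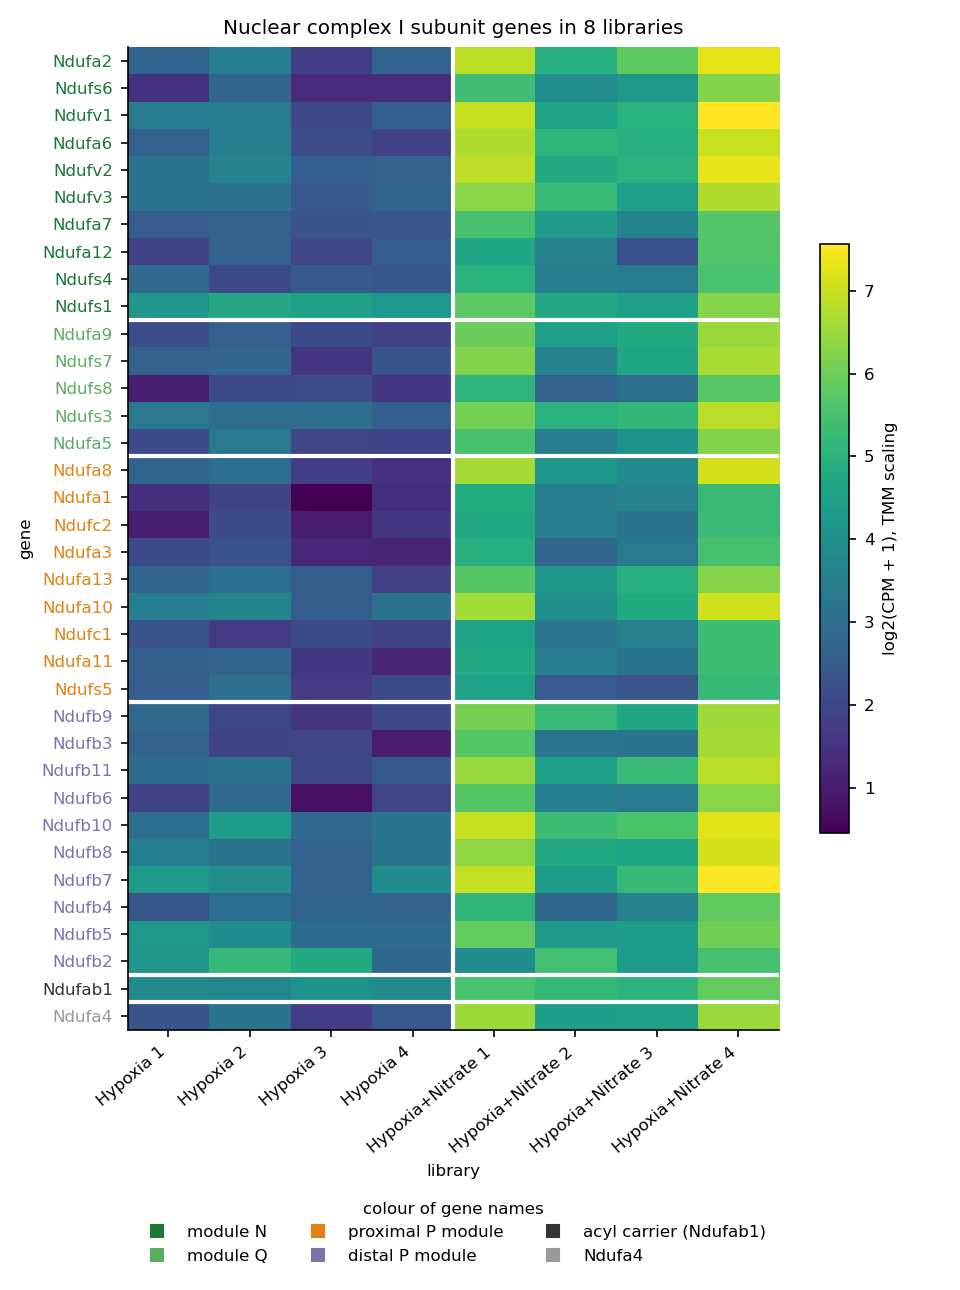
Level of 36 nuclear complex I subunit genes (rows, names coloured by module) in each of the 8 libraries (columns), as log2(CPM + 1) with TMM scaling. The Hypoxia columns are dark for most genes, Hypoxia+Nitrate 1 and 4 are the brightest, and the rows of Ndufb2 and Ndufs1 change least between the groups.

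Within Hypoxia+Nitrate the libraries fell into pairs. In 36 of the 37 genes Hypoxia+Nitrate 1 and 4 both lay above Hypoxia+Nitrate 2 and 3. The median member stood at 5.67, 7.27, 3.16 and 4.10 CPM in the Hypoxia libraries, in the order of their numbers, and at 54.1, 18.4, 21.2 and 78 CPM in those of Hypoxia+Nitrate. The same pair had the largest share of mitochondrial counts, the smallest background share and the highest sums of enterocyte markers. These sums were 16375 and 22917 CPM in Hypoxia+Nitrate 1 and 4, against 715 and 453 CPM in Hypoxia+Nitrate 2 and 3. Smooth muscle markers summed to 1386 and 1342 CPM in the first pair and 2946 and 1495 CPM in the second. The part of the cell mixture in the pairs was not tested. Without Hypoxia+Nitrate 1 and 4 the median log2 fold change of the members was 1.82 and 24 were called higher. Over all genes that fit called 11637, of which 36.5% were higher, against 8653 in the reported fit. Without Hypoxia 1 and 2, whose counts were 75.7% and 73.7% ribosomal DNA, the median of the members was 3.84 and 17 were called. Of all genes 4227 were called there, 14.8% of them higher. Leaving out Hypoxia 1 alone left 19 called, and any other single library 25 to 36. Over all genes the fit without Hypoxia 1 called 1932, of which 35% were higher, and the other single-library fits 4235 to 22454.

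The size of the shift, and with library size alone every call, depended on the scaling. Under TMM, RLE, upper-quartile and library size scaling, in this order, all genes had median log2 fold changes of −0.58, −0.87, −0.94 and −1.07, and the complex I subunits of 3.20, 2.95, 2.76 and 2.12. The number of members called was 34, 33, 32 and 0, and that of all genes 8653, 9249, 8269 and 1800. With library size alone 17 members had an unadjusted p under 0.05 in edgeR, as had 6335 of all genes in either direction. There 35 of the 37 had a positive log2 fold change, Ndufb2 and Ndufs1 being the exceptions. Effective library sizes after TMM lay between 13747505 and 20499131, from factors of 0.22 in Hypoxia+Nitrate 1 to 3.69 in Hypoxia 3.

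The core of the N module begins the electron path. Ndufv1 (ENSMUSG00000037916, GRCm38 chromosome 19, 4007384 to 4012806), which binds NADH and the flavin, held 9.41, 9.75, 3 and 4.94 CPM in Hypoxia 1 to 4 and 123, 22.5, 31.1 and 188 CPM in Hypoxia+Nitrate 1 to 4. Every Hypoxia+Nitrate value lay above every Hypoxia value, and its log2 fold change was 3.75 (SE 0.786, edgeR adjusted p = 0.00997). Its partner Ndufv2, an iron-sulfur subunit (ENSMUSG00000024099, chromosome 17, 66078638 to 66101559), held 8.34, 11.3, 4.95 and 5.24 CPM in Hypoxia and 115, 26.3, 31.9 and 157 CPM in Hypoxia+Nitrate. These groups did not overlap either, and Ndufv2 rose by 3.47 (SE 0.69, adjusted p = 0.00921, edgeR).

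Ndufs1, the largest core subunit of the N module and carrier of several iron-sulfur clusters, did not follow its neighbours. Ndufs1 (ENSMUSG00000025968, chromosome 1, 63143596 to 63176833) held 17, 26, 22 and 18 CPM in Hypoxia and 54.1, 25.7, 21.5 and 76.0 CPM in Hypoxia+Nitrate. Only Hypoxia+Nitrate 1 and 4 exceeded the Hypoxia values, while Hypoxia+Nitrate 2 and 3 lay among them. The log2 fold change of Ndufs1 was 1.09 (SE 0.489, edgeR adjusted p = 0.118), and it was −0.15 when only library size was scaled. Without Hypoxia+Nitrate 2 or 3 Ndufs1 passed, in fits that called 22454 and 14697 of all genes, against 8653 in the reported one. Its share of all nuclear complex I counts was 6.64%, 7.80%, 12.2% and 9.69% across the Hypoxia libraries, against 2.21%, 3.45%, 2.65% and 2.17% across those of Hypoxia+Nitrate, without overlap.

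Ndufs7, Ndufs8 and Ndufs3, core subunits of the Q module, rose. Ndufs7, which holds the last iron-sulfur cluster before ubiquinone (ENSMUSG00000020153, chromosome 10, 80249121 to 80256794), held 5.27, 5.89, 1.95 and 3.91 CPM in Hypoxia and 74, 11.1, 24.5 and 99.9 CPM in Hypoxia+Nitrate. The groups did not overlap, at a log2 fold change of 3.62 (SE 0.727, edgeR adjusted p = 0.00927).

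Ndufs8 was low in level in Hypoxia. Ndufs8, a subunit with a pair of iron-sulfur clusters (ENSMUSG00000059734, chromosome 19, 3908863 to 3912774), held 1.07, 3.06, 3.37 and 1.99 CPM in Hypoxia and 32.9, 5.63, 7.46 and 52 CPM in Hypoxia+Nitrate. It rose by 3.36 (SE 0.763, edgeR adjusted p = 0.0127), a call that was lost without Hypoxia 1. Its 16 counts in Hypoxia 1 amounted to 0.683 times the expected background, and Ndufs8 was thus not detectable above background in that library. Ndufs3, a scaffold subunit of the same module (ENSMUSG00000005510, chromosome 2, 90894634 to 90904827), held 8.95, 6.98, 6.96 and 5 CPM in Hypoxia and 66.3, 31.1, 34.6 and 110 CPM in Hypoxia+Nitrate. Ndufs3 had no overlap between groups in CPM and rose by 3.12 (SE 0.532, edgeR adjusted p = 0.00917).

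Among the supernumerary genes grouped with the N module, Ndufa2 led. Ndufa2, a small subunit with a thioredoxin-like fold (ENSMUSG00000014294, chromosome 18, 36742332 to 36744557), held 5.87, 10.3, 2.42 and 5.54 CPM in Hypoxia and 113, 30.5, 55.1 and 155 CPM in Hypoxia+Nitrate. Its groups were far apart and its log2 fold change was 3.87 (SE 0.68, edgeR adjusted p = 0.00917). Ndufs6, a zinc-binding subunit, rose by 3.79, and Ndufa6, of the family that binds acyl carrier protein, by 3.74. Ndufv3, a flexible subunit at the NADH end, rose by 3.20 and Ndufa7 by 2.81. The smallest calls of the module were Ndufa12 at 2.51 and Ndufs4 at 2.40, the latter a subunit whose loss causes Leigh syndrome in people and in mice. Ndufa12 held 3.76 CPM in Hypoxia+Nitrate 3, inside its Hypoxia range of 2.54 to 5.24 CPM. The calls of Ndufa12 and Ndufs4 were lost without any 1 of the 4 Hypoxia libraries, and that of Ndufa12 also without Hypoxia+Nitrate 4. In all, 9 of the 10 N module genes rose, with a median of 3.33.

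The supernumerary genes of the Q module were Ndufa9 and Ndufa5. Ndufa9, which resembles short-chain dehydrogenases and sits beside the ubiquinone site (ENSMUSG00000000399, chromosome 6, 126821721 to 126849136), held 3.40, 5.24, 3.11 and 2.59 CPM in Hypoxia and 61.1, 21.1, 27 and 89.7 CPM in Hypoxia+Nitrate. The lowest Hypoxia+Nitrate value was thus well above the highest Hypoxia value, and Ndufa9 was one of the 18 members called in each of the 8 fits that left out 1 library. Ndufa5 rose by 3.01 (SE 0.714, edgeR adjusted p = 0.015) and lost its call without Hypoxia 1, 3 or 4.

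In the membrane arm near the hinge with the matrix arm, 8 of 9 genes rose, with a median of 3.08. Ndufa8, which faces the intermembrane space and is held by disulfide bonds (ENSMUSG00000026895, chromosome 2, 36036326 to 36049406), held 5.67, 7.06, 2.37 and 1.81 CPM in Hypoxia and 95.8, 17.3, 13.2 and 134 CPM in Hypoxia+Nitrate. There was no overlap, and its log2 fold change of 3.94 (SE 0.861, edgeR adjusted p = 0.0112) had its call lost without Hypoxia 1. Ndufa1, a short membrane subunit encoded on the X chromosome, rose by 3.75 from only 7 to 38 counts per Hypoxia library. Ndufc2 rose by 3.50, Ndufa3 by 3.22, Ndufa13 (also known as GRIM-19) by 3.08, Ndufa10 by 2.95, Ndufc1 by 2.78 and Ndufa11 by 2.57. The calls of Ndufa10 and Ndufa11 were lost without Hypoxia 1, 3 or 4, and that of Ndufa3 without Hypoxia 1.

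Ndufs5 was the gene of this region that was not called. Ndufs5, another intermembrane space subunit with paired cysteines (ENSMUSG00000028648, chromosome 4, 123712710 to 123718202), held 4.74, 7.49, 2.27 and 3.13 CPM in Hypoxia and 22.5, 4.61, 4.14 and 36 CPM in Hypoxia+Nitrate. As with Ndufs1, Hypoxia+Nitrate 2 and 3 lay inside the Hypoxia range and Hypoxia+Nitrate 1 and 4 above it. The log2 fold change was 1.93 (SE 0.733, edgeR adjusted p = 0.0752), and without Hypoxia+Nitrate 1 and 4 it was 0.06. Ndufs5 passed without Hypoxia+Nitrate 2 or 3, in fits that called 22454 and 14697 of all genes, against 8653 in the reported one. Of its 50-base sequences, 21.7% also occur in transcripts of the gene BC002163, so its counts are uncertain.

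The far end of the membrane arm held both the largest and the smallest fold change of the set. Ndufb9, a subunit of the LYR motif family (ENSMUSG00000022354, chromosome 15, 58933756 to 58939488), held 6.48, 2.98, 1.90 and 3.01 CPM in Hypoxia and 68.3, 36.9, 25.6 and 93.1 CPM in Hypoxia+Nitrate. Even Hypoxia+Nitrate 3 stood above all Hypoxia libraries, and Ndufb9 rose by 3.96 (SE 0.606, edgeR adjusted p = 0.00917). Ndufb3 rose by 3.74, Ndufb11, on the X chromosome, by 3.60, Ndufb6 by 3.58, Ndufb10 by 3.10, Ndufb8 by 3.06, Ndufb7 by 2.79 and Ndufb4 by 2.25. Ndufb4 and Ndufb7 lost their calls without any 1 of the 4 Hypoxia libraries, Ndufb4 also without Hypoxia+Nitrate 1 or 4, Ndufb6 without Hypoxia 1 or 4, Ndufb3 without Hypoxia 3 and Ndufb10 without Hypoxia 1. Ndufb5, a single-pass membrane subunit (ENSMUSG00000027673, chromosome 3, 32736990 to 32751566), held 17.9, 14.1, 6.85 and 6.81 CPM in Hypoxia and 57.5, 18.9, 20.7 and 64.6 CPM in Hypoxia+Nitrate. These did not overlap, though by a narrow margin, and Ndufb5 rose by 1.82 (SE 0.565, edgeR adjusted p = 0.0385), a call kept only without Hypoxia+Nitrate 2 or 3. The fits that kept it called 22454 and 14697 of all genes, against 8653 in the reported one. With 9 of 10 called, this end had a median of 3.08.

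Ndufb2 showed no separation of the groups. This small membrane subunit (ENSMUSG00000002416, chromosome 6, 39592574 to 39603382) held 16.9, 35.9, 26.9 and 6.26 CPM in Hypoxia and 14.2, 41.8, 20 and 44.2 CPM in Hypoxia+Nitrate. The 2 ranges covered nearly the same values, and Hypoxia+Nitrate 1, above Hypoxia+Nitrate 2 and 3 for every other member, was the lowest of its group here. The log2 fold change was 0.48 (SE 0.583, edgeR adjusted p = 0.539), and −0.15 with library size alone. Exons of Braf, Gm16272 and Gm42420 overlap the annotated Ndufb2, and 92.1% of its 5628 exonic bases are free of them, so a part of its counts cannot be assigned with certainty.

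Ndufab1 and Ndufa4 stand aside from the modules. Ndufab1, the mitochondrial acyl carrier protein, which also serves fatty acid synthesis in the matrix (ENSMUSG00000030869, chromosome 7, 122085403 to 122101886), held 13.3, 11.8, 16 and 13.1 CPM in Hypoxia and 45.3, 35.7, 32.5 and 57.1 CPM in Hypoxia+Nitrate. It was the most even member within groups, at 13.5 ± 1.76 and 42.7 ± 11.1 CPM (mean ± SD, n = 4 libraries per group), and rose by 1.66 (SE 0.386, edgeR adjusted p = 0.0139), a call lost without Hypoxia 1. Ndufa4, named for complex I but found in cytochrome c oxidase, rose by 3.56 (SE 0.681, edgeR adjusted p = 0.00917) with no overlap between groups.

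**Figure D2:**
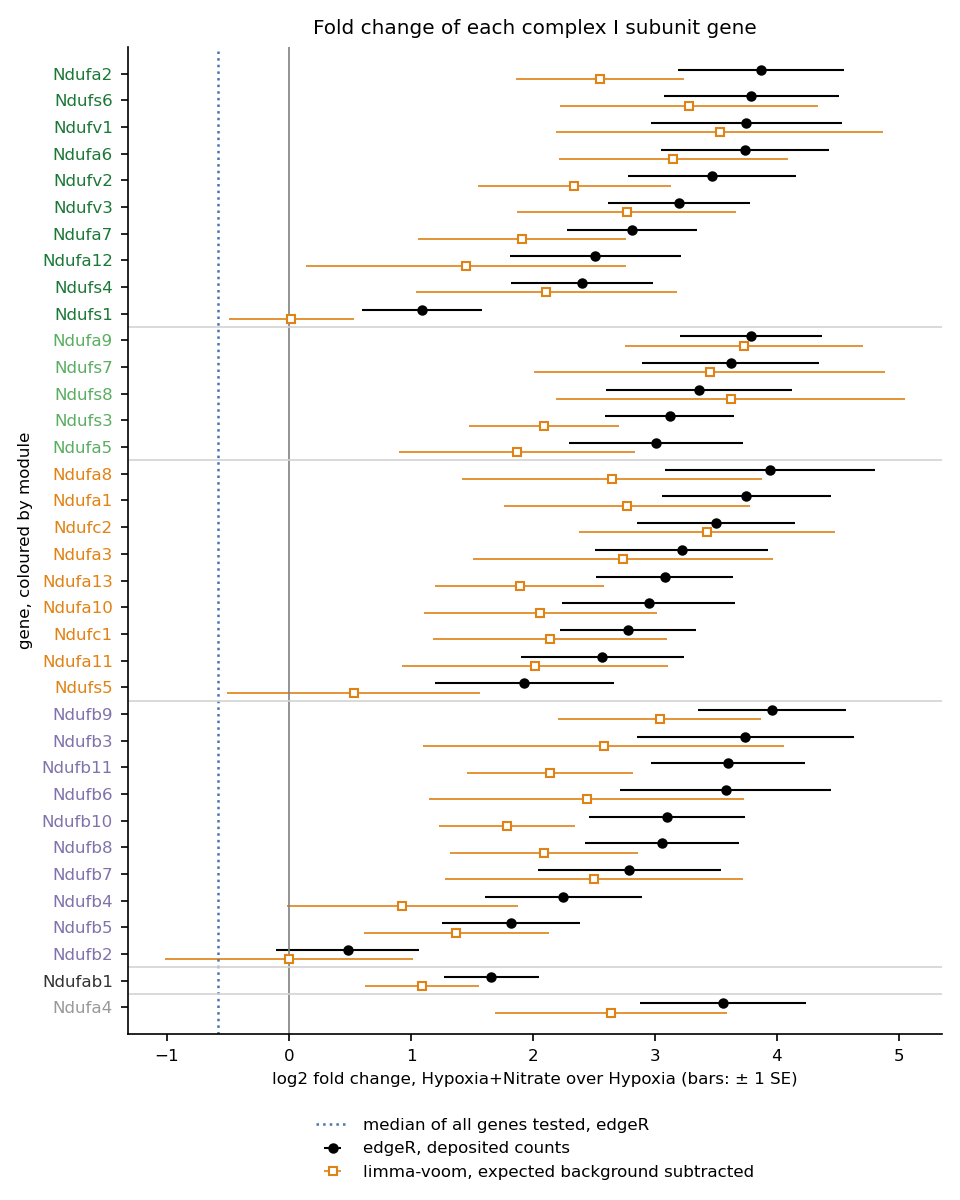
Log2 fold change of Hypoxia+Nitrate over Hypoxia for 36 members (rows, coloured and ordered by module), from edgeR on the deposited counts (filled circles) and from limma-voom after the expected background was subtracted (open squares), with bars of 1 SE. The circles lie between 0.48 and 3.96, right of the median of all genes at −0.58, and the squares of Ndufb2 and Ndufs1 lie at 0.00 and 0.02.

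In Hypoxia many members were close to the background that silent genes would give. The observed count divided by the expected background had a median over the 37 genes of 2.69, 4.22, 1.85 and 2.31 in Hypoxia 1 to 4, and of 148, 14, 16.6 and 221 in Hypoxia+Nitrate 1 to 4. Under 2 times the background lay 9, 2, 21 and 14 of the members in Hypoxia 1 to 4 and 0 in each Hypoxia+Nitrate library. In Hypoxia 3 these included the core genes Ndufv1 and Ndufs7, at 1.05 and 1.04 times it. Over the pooled Hypoxia counts the expected background was a median of 36.4% of a member's counts, against 1.64% in Hypoxia+Nitrate. It was the larger part for 6 genes, namely Ndufs4, Ndufa9, Ndufs8, Ndufc1, Ndufv3 and Ndufab1, whose Hypoxia counts were 1.59, 1.63, 1.77, 1.90, 1.91 and 1.96 times the expected background. At the other end Ndufb11 and Ndufa2 stood at 12.4 and 10.7 times the background in Hypoxia. Ndufb11 lies on the X chromosome, where the expected background was multiplied by 0.5, though the sex of the mice is not given. The 7 receptor genes on X had 0.479, 0.672, 0.662 and 0.842 times the autosomal density in Hypoxia 1 to 4. The place of Ndufb11 thus depends on that factor.

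**Figure D3:**
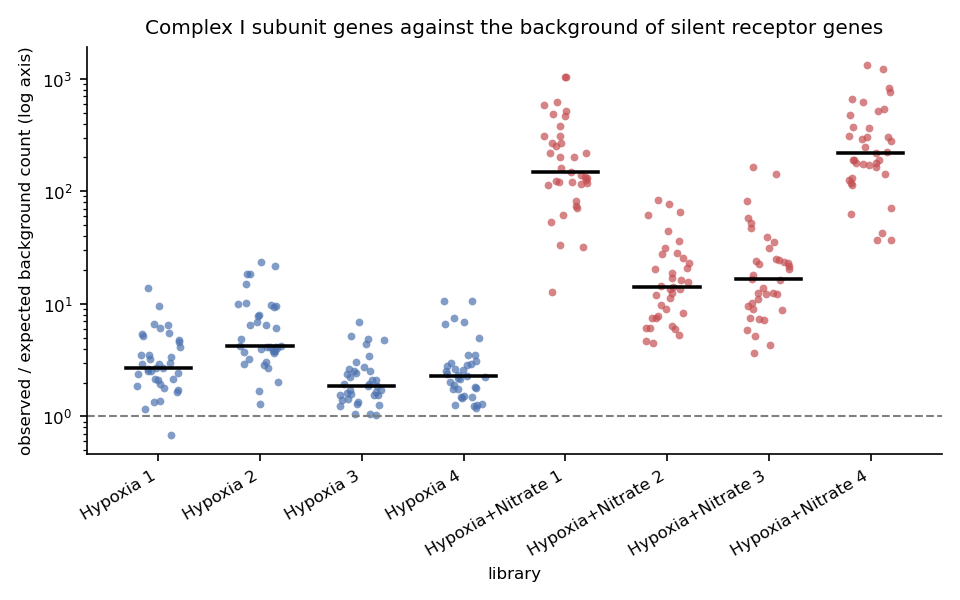
Observed count over the count expected from silent receptor genes, on a log axis, for each of the 37 members (points) in each library (Hypoxia blue, Hypoxia+Nitrate red), with the median as a black line and equality dashed. The Hypoxia medians lie between 1.85 and 4.22 and the Hypoxia+Nitrate medians between 14 and 221.

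The members were also fitted after the expected background was taken off each count, with limma-voom and fewer genes. Without subtraction limma-voom gave a median log2 fold change of 2.99 for the members. In limma-voom on the subtracted counts the median log2 fold change of the members was 2.34, against 0.06 for all genes in that fit, with a median SE of 0.958. All 37 values were at or above 0 and 26 were at least 2. Only 4 members were called, among them Ndufa9 at 3.73 (SE 0.979, adjusted p = 0.0334), Ndufb9 at 3.04 (SE 0.831, adjusted p = 0.0389) and Ndufa2 at 2.55 (SE 0.692, adjusted p = 0.0379), where 4.17% of the 14967 genes in that fit were called higher. The members outside the calls after subtraction included Ndufv1 at 3.53 (SE 1.34, adjusted p = 0.107, limma-voom), so size alone did not set which passed. Ndufs1 was at 0.02 (SE 0.51) and Ndufb2 at 0.00 (SE 1.02). When the background share of each library entered edgeR as a covariate, 0 members and 0 of all genes were called, and the median of the members was 0.66. At an unadjusted p under 0.05 that edgeR fit had 1 member and 2679 of all genes in either direction.

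As a share of nuclear protein-coding counts, which is free of the scaling factors, the set was also higher in Hypoxia+Nitrate. In Hypoxia 1 to 4 the 37 genes together made up 0.147%, 0.163%, 0.0986% and 0.0920%. In Hypoxia+Nitrate 1 to 4 they made up 0.363%, 0.262%, 0.270% and 0.452%. With the expected background taken off members and total alike the shares were 0.259%, 0.214%, 0.117% and 0.0999%, and 0.371%, 0.316%, 0.316% and 0.463%. The groups did not overlap in either form, and the gap between Hypoxia 1 and the lowest Hypoxia+Nitrate library was small in the second. Gene by gene, the share was higher in every Hypoxia+Nitrate library than in any Hypoxia library for 23 of the 37, as for 6.03% of nuclear protein-coding genes tested. After subtraction this held for 16, as for 6.68% of the genes in that fit. Among the members apart in CPM, Ndufv1, Ndufs7, Ndufs8, Ndufs3 and Ndufa8 overlapped in share after subtraction. Ndufb5 overlapped in share before and after it.

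The share that each member took of the complex I counts is given without a test, and no like count was made over other genes. Since these shares make up a fixed whole, some must fall where others rise. The share of all complex I counts was higher in every Hypoxia+Nitrate library for 9 genes, among them Ndufb9, Ndufa2, Ndufa9, Ndufa1, Ndufa6, Ndufb11, Ndufa4 and Ndufv2, and lower for 4, Ndufb4, Ndufs5, Ndufb5 and Ndufs1. Ndufb5 went from 7.00%, 4.23%, 3.78% and 3.66% to 2.34%, 2.54%, 2.55% and 1.84%. These shares are not corrected for background, which adds more counts to genes with long exons. Across the 37 members the log2 fold change was lower for longer genes, with Pearson's r = −0.62 and Spearman's rho = −0.53 against log10 of the exonic length free of other genes, and −0.40 and −0.32 after subtraction. These correlations are across genes that share the same 8 libraries and are given as a description.

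Levels between members can be compared per kb of exon. In Hypoxia+Nitrate the order began with Ndufa2 at 154 ± 98.1 CPM per kb (mean ± SD, n = 4), followed by Ndufa8 at 75.5 ± 69.1, Ndufb10 at 73.1 ± 45 and Ndufb11 at 71.7 ± 47.1 CPM per kb, and the spread of each covered its neighbours. It ended with Ndufs4 at 8.83 ± 6.41, Ndufb5 at 8.09 ± 4.80, Ndufab1 at 6.20 ± 1.61, Ndufs1 at 5.48 ± 3.17 and Ndufb2 at 5.34 ± 2.70 CPM per kb. Ndufs1, Ndufab1, Ndufb2 and Ndufb5 are among the 5 members with over 4 kb of exon free of other genes, where the exons of all annotated transcripts are joined. In Hypoxia the same measure ran from 10.6 ± 5.69 CPM per kb for Ndufa2 to 1.67 ± 0.507 for Ndufs4. Ndufa2 was first in both groups.

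The complex I genes of the mitochondrial genome encode the proton-pumping core of the membrane arm. All 7 had positive log2 fold changes, from 4.84 to 7.27 with a median of 6.37, but only mt-Nd3 and mt-Nd4l were called, at 6.77 (SE 1.75) and 7.03 (SE 1.99), with edgeR adjusted p = 0.0201 and 0.0282. Among all genes tested 11.7% were called higher in that fit. With library size alone the median was 4.56 and all 7 were called, as they were without Hypoxia+Nitrate 2. All genes called in these settings were 1800, of which 13.5% were higher, and 22454, of which 26.6% were higher. In the leave-one-out fits the calls of mt-Nd3 and mt-Nd4l were lost without Hypoxia 1, 3 or 4, and that of mt-Nd4l also without Hypoxia 2. mt-Nd1 held 827, 1259, 336 and 206 CPM in Hypoxia and 269892, 3994, 2927 and 130125 CPM in Hypoxia+Nitrate. The spread within Hypoxia+Nitrate was thus far wider than for any nuclear member, and neither mt-Nd1 (7.27, SE 3.33, edgeR adjusted p = 0.125) nor mt-Nd5 (5.96, SE 2.66, edgeR adjusted p = 0.118) passed. Summed counts of the 7 mitochondrial genes were 19.2, 18.9, 8.89 and 5.46 times those of the 37 nuclear genes in Hypoxia 1 to 4, and 314, 22.1, 17.1 and 85.1 times in Hypoxia+Nitrate 1 to 4. The groups thus overlapped, with Hypoxia 1 and 2 above Hypoxia+Nitrate 3. After background was taken off the nuclear genes the Hypoxia ratios were 30, 23.6, 16.4 and 9.44, which also overlap the 23.9 and 18.2 of Hypoxia+Nitrate 2 and 3.

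Among the factors that build complex I, the share called was near that of all genes. Of 16 assembly factors tested 2 rose and 14 were not called, with a median of 0.80, beside 11.7% higher among all genes. Ndufaf8, which stabilises the assembly factor Ndufaf5, rose by 3.15 (SE 0.736, edgeR adjusted p = 0.0141), and Ecsit, of the membrane arm assembly complex, by 1.82 (SE 0.503, edgeR adjusted p = 0.0258). Both lost their calls without Hypoxia 1 or 4, and Ecsit also without Hypoxia 3. Timmdc1, another membrane arm factor, was at 1.09 (edgeR adjusted p = 0.0725). It passed without Hypoxia+Nitrate 3, in a fit that called 14697 of all genes, against 8653 in the reported one. Values for Nubpl, which delivers iron-sulfur clusters to complex I, and Acad9 were −0.33 and −0.31 and not called. Together these factors summed to 75.2, 99.7, 84.7 and 100 CPM in Hypoxia and 168, 139, 158 and 237 CPM in Hypoxia+Nitrate. After background subtraction 1 of 15 was called higher, beside 4.17% of all genes in that fit, and the median was 1.12, and the difference between subunits and assembly factors was not tested.

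The cofactors of complex I are made elsewhere in the mitochondrion. Of 14 genes of iron-sulfur cluster assembly 7 rose, beside 11.7% of all genes, with a median of 1.60, among them the chaperone Hspa9 at 3.49, the scaffold Iscu at 3.08, the co-chaperone Hscb at 2.64 and the glutaredoxin Glrx5 at 2.70. Of 13 genes of ubiquinone synthesis 3 rose, against the same 11.7%, Coq9 by 2.94, Coq2 by 1.97 and Coq10a by 1.52, with a median of 1.35 for the list. Without Hypoxia 1, where all genes called fell from 8653 to 1932, 1 gene of each of these lists was called. After background subtraction 1 of 13 iron-sulfur genes and 0 of 13 ubiquinone genes were called higher, beside 4.17% of all genes in that fit. Coq9 and Coq2 counts in Hypoxia were both 1.25 times the expected background.

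Enzymes that feed NADH to complex I rose as a whole list. All 13 tested were called higher, beside 11.7% of all genes, with a median of 3.54 and values from 1.72 to 5.48, and with library size alone 3 were called and the median was 2.40. Without Hypoxia 1 only Dld was called, and without Hypoxia 3 or 4 there were 6 calls. All genes called in these fits were 1932, 4235 and 4434, against 8653 in the reported fit. After background subtraction 0 of the 13 were called, beside 4.17% higher among all genes in that fit, and the median was 3.15. Malate dehydrogenase Mdh2 rose by 5.48, glutamate dehydrogenase Glud1 by 5.20 and Ogdh of the oxoglutarate dehydrogenase complex by 4.52. Dld, the dihydrolipoamide dehydrogenase shared by the matrix dehydrogenase complexes, rose by 3.70 from Hypoxia counts only 1.12 times the background. Of 8 genes for other routes to ubiquinone 4 rose, including the electron transfer flavoproteins Etfb at 4.34 and Etfa at 3.95, while Dhodh of pyrimidine synthesis was at −0.04 (edgeR adjusted p = 0.942). Etfb kept its call whichever library was left out, and Etfa lost it without Hypoxia 1, 3 or 4. Of the 8 genes for other routes, 0 were called after background subtraction, with a median of 1.84.

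The other complexes of oxidative phosphorylation had medians above that of complex I, a difference that was not tested in the fit. All 40 nuclear subunit genes tested of complexes II to V were called higher, beside 11.7% of all genes, with medians of 4.10 for complex II, 3.96 for III, 3.84 for IV and 3.70 for V, and 2.61 as the smallest value. Without Hypoxia 1 the calls fell to 0 for complex II, 7 for III, 6 for IV and 8 for V. In that fit the calls over all genes fell as well, from 8653 to 1932, of which 35% were higher. After background subtraction their joint median was 2.90 and 8 of 40 were called, beside 4.17% of all genes in that fit. Counts of the nuclear complex I genes were 0.627, 0.553, 0.910 and 0.591 times those of complexes II to V in Hypoxia 1 to 4, and 0.286, 0.426, 0.441 and 0.279 times in Hypoxia+Nitrate 1 to 4. Taking off the background from both gave 0.532, 0.503, 0.905 and 0.470, and 0.285, 0.409, 0.426 and 0.278. Relative to the other complexes, complex I transcripts were thus lower in every Hypoxia+Nitrate library than in any Hypoxia library, with Hypoxia+Nitrate 1 and 4 lowest and Hypoxia 3 highest.

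**Figure D4:**
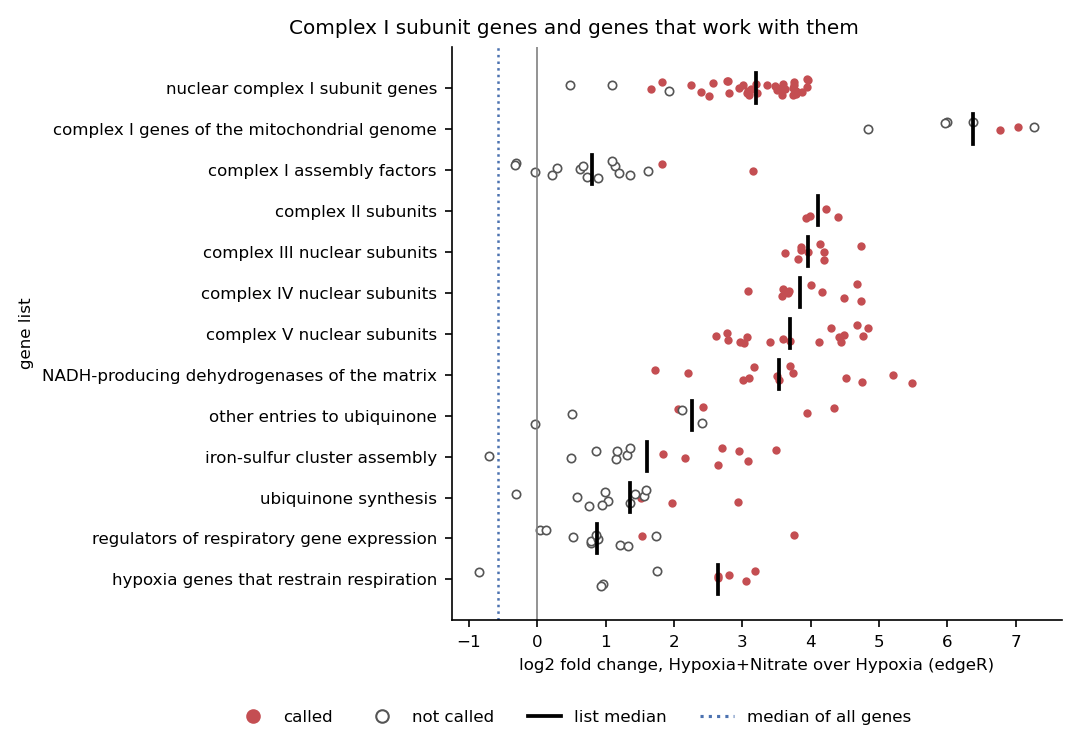
Log2 fold change of each gene (points, filled where called in edgeR) in the nuclear complex I set and 12 companion lists, with list medians as black bars and the median of all genes as a dotted line. The subunits of complexes II to V lie between 2.61 and 4.84, while assembly factors and regulators cluster around 0.80 and 0.88.

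**Figure D5:**
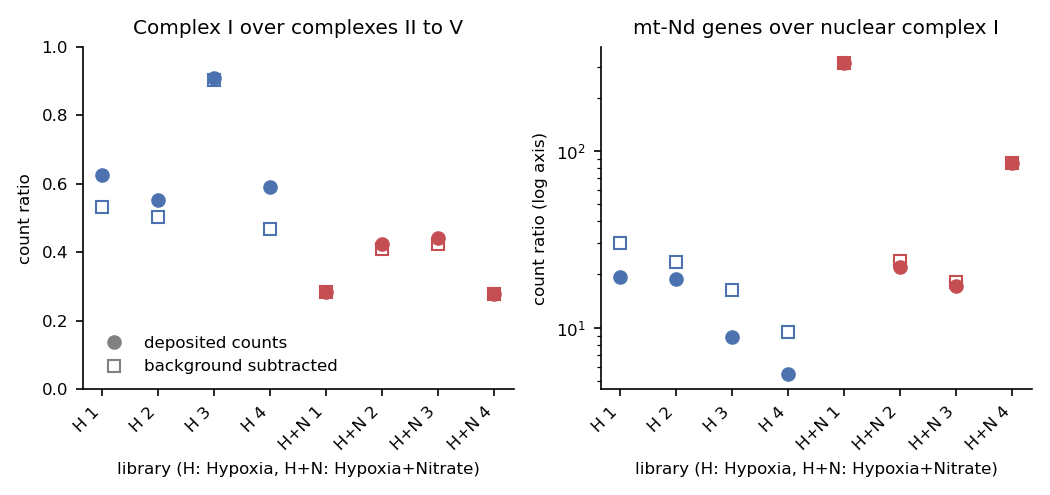
Left, counts of nuclear complex I genes over counts of nuclear genes of complexes II to V in each library; right, counts of the 7 mitochondrial complex I genes over nuclear complex I counts, on a log axis. Filled circles use deposited counts and open squares subtracted ones, and in the left plot the 4 Hypoxia+Nitrate libraries, between 0.279 and 0.441, all lie below the Hypoxia libraries.

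Regulators of respiratory genes were called higher at a share near that of all genes. Of 12 tested 2 rose, beside 11.7% of all genes, with a median of 0.88 that turned to −0.03 when only library size was scaled. Esrra, the estrogen-related receptor that acts with PGC-1 coactivators, rose by 3.76 (SE 0.818, edgeR adjusted p = 0.0111), and Gabpa, the DNA-binding part of nuclear respiratory factor 2, by 1.53 (SE 0.499, edgeR adjusted p = 0.0456). Esrra lost its call without Hypoxia 1, and Gabpa without any 1 library other than Hypoxia+Nitrate 2 or 3. Ppargc1a, the coactivator PGC-1 alpha, held 11.7, 7.49, 13.2 and 10.1 CPM in Hypoxia and 40.2, 8.93, 8.55 and 40.7 CPM in Hypoxia+Nitrate. It was high in Hypoxia+Nitrate 1 and 4 alone and was not called (1.21, SE 0.582, edgeR adjusted p = 0.14), with −0.18 when those libraries were left out. Nrf1, nuclear respiratory factor 1, was at 0.79 (edgeR adjusted p = 0.181). It passed when Hypoxia+Nitrate 1 and 4 were both left out, in a fit that called 11637 of all genes. Yy1 was at 1.73 (edgeR adjusted p = 0.0541), and Tfam, the packaging and transcription factor of the mitochondrial genome, at 1.32 (edgeR adjusted p = 0.0631). Without Hypoxia+Nitrate 2 or 3 Ppargc1a, Yy1 and Tfam passed, in fits that called 22454 and 14697 of all genes, against 8653 in the reported one. After background subtraction 0 of the 12 regulators were called, beside 4.17% higher among all genes in that fit.

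Promoter sequences were read from RefSeq (GRCm38.p6) for 33 of the 37 members, from 250 bases before to 50 after the start, and searched on both strands for short forms of the sites of 3 of these factors. GCGCATGC, a form of the NRF1 site, was found in 3 members (9.09%, against 3.05% of 27025 genes), CCGGAAG, an ETS form bound by GABPA, in 4 (12.1% against 9.93%), and AAGATGGCG, a form of the YY1 site, in 5 (15.2% against 1.64%). These matches are a description of letters, not of bound sites. The 4 sequences shown lie before the transcription start and outside annotated exons, with the NRF1 letters in capitals. Ndufa11 and Ndufa6 are shown because they hold the NRF1 letters, Ndufa9 because it was called before and after background subtraction, and Ndufb2 because its groups did not differ beyond their spread.
Ndufa11, chr17:56717686-56717761, plus strand: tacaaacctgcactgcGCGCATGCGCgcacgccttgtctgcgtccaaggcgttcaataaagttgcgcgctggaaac
Ndufa6, chr15:82354323-82354491, minus strand: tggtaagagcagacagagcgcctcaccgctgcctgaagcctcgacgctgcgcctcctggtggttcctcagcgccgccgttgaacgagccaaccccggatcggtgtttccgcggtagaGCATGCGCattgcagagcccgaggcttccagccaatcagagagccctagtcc
Ndufa9, chr6:126849145-126849344, minus strand: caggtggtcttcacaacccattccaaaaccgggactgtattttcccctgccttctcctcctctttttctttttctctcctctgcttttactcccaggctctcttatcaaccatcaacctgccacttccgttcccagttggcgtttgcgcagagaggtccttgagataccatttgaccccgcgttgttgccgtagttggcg
Ndufb2, chr6:39592365-39592564, plus strand: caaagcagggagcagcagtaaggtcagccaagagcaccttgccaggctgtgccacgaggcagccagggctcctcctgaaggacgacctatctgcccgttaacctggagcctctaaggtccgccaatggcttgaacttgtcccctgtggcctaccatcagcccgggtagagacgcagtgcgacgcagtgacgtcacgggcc
In Ndufa11 the capitals are a pair of overlapping matches, 60 and 58 bases before the start and on opposite strands, and in Ndufa6 the match begins 83 bases before the start on the other strand. The windows of Ndufa9 and Ndufb2 hold none of the 3 forms, and the YY1 letters counted for Ndufa9 lie outside its window. Ndufa11 and Ndufa6 had log2 fold changes of 2.57 and 3.74, Ndufa9 of 3.79 and Ndufb2 of 0.48.

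Hypoxia genes linked to respiration, drawn in the figure under the name of genes that restrain it, were partly higher in Hypoxia+Nitrate. Of 9 such genes 5 rose and 4 were not called, beside 11.7% higher among all genes, with a median of 2.64, among them the mitophagy receptor Bnip3 at 3.05, the cytochrome oxidase modulator Higd1a at 2.80 and the MYC antagonist Mxi1 at 2.64. These 3 kept their calls whichever library was left out, while Bnip3l and Egln3 lost theirs without Hypoxia 1, 3 or 4, and Bnip3l also without Hypoxia 2 or Hypoxia+Nitrate 4. After background subtraction 1 of the 9 genes was called higher, beside 4.17% of all genes in that fit. Ndufa4l2, a hypoxia-induced relative of Ndufa4 that lowers complex I activity, held 1.74, 2.11, 2.21 and 2.77 CPM in Hypoxia and 0.568, 1.31, 1.74 and 1.27 CPM in Hypoxia+Nitrate. These ranges touched, and the log2 fold change of −0.85 (SE 0.721, edgeR adjusted p = 0.382) did not pass. The Hypoxia counts of Ndufa4l2 amounted to 1.98 times the expected background.

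Some genes share sequence with the members or stand for one under another name. Ndufb1-ps, the deposited name for the Ndufb1 gene, held 3.40, 4.29, 2.79 and 2.71 CPM in Hypoxia and 17.7, 5, 8 and 25 CPM in Hypoxia+Nitrate, and rose by 2.08 (SE 0.551, edgeR adjusted p = 0.022). Ndufb4c, a copy that shares 18.3% of the 50-base sequences of Ndufb4, was at 1.66 (edgeR adjusted p = 0.0984), and Ndufs6b at −0.49 (edgeR adjusted p = 0.665). Ndufa11b had 4, 7, 23 and 7 counts in Hypoxia and 0 in every Hypoxia+Nitrate library. Gm15920, which shares 17.7% of the 50-base sequences of Ndufa12, had 60, 76, 33 and 26 counts in Hypoxia and 542, 113, 211 and 1184 in Hypoxia+Nitrate. Among the members, shared 50-base sequences reached 31.6% for Ndufb6, with Smim27, and 28.5% for Ndufa13, mostly with Tssk6, and exons of 16 members are overlapped by another gene, so the values of these members carry an uncertainty that the standard errors do not hold.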

How the data were processed

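Total RNA of mouse small intestine was sequenced in 8 libraries, with groups and replicate numbers read from the sample titles. The authors deposited raw read counts per gene, and the per-sample tables were identical to the joint one. The submitters' processing notes name GRCm38 as the build, and DESeq (1.8.3), featureCounts (1.5.0-p3) and HISAT as tools. The strand setting, the annotation and how duplicates were handled are not stated. The kit marks strand per the labels' protocols. Of 55421 gene IDs, 55240 matched GENCODE M21 (GRCm38), which gave positions and exonic lengths.

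The quasi-likelihood test of edgeR (4.0.16, in R 4.3.3) was run over all genes with TMM factors, after filterByExpr at a minimum count of 10 and a minimum total of 15, with Benjamini-Hochberg adjustment at 0.05. Standard errors were derived from the fitted log2 fold change and its F statistic. Expected background was the density of counts on 1443 autosomal receptor genes multiplied by each gene's exonic length free of other genes, multiplied by 0.5 for genes on X or Y. Alternatives were other scalings and filters, DESeq2 (1.42.0), limma-voom (limma 3.58.1), the replicate number as a block, left-out libraries, gene subsets, background subtraction and a background covariate. The scripts were tested on simulated data. There 3.95% of the genes given a log2 change of 2 were called, and 45.3% of those given 4. Few genes were changed in the simulation, which makes the adjusted threshold stricter than in the reported fit, where 8653 genes were called. These rates are therefore not the power of the reported fit. A gene that was not called is still not shown to be unchanged. The members and lists were chosen with earlier results of these data known.

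Any member could be named. Values in every library were to be given for the 7 core subunits, for the 4 largest and 4 smallest log2 fold changes and for members not called, with up to 3 genes of lowest p per companion list and Ndufa4l2, Ndufb1-ps, Ppargc1a, Nrf1, Tfam, mt-Nd1 and mt-Nd5. Mdh2, Glrx5, Dhodh, Nubpl, Acad9 and the copies Ndufb4c, Ndufs6b and Ndufa11b were added after their values were seen. Some results that this rule takes in are not reported here. Precision for nuclear genes rests on 2608226 to 15891314 nuclear protein-coding counts per library, out of totals of 5345377 to 63943036, and on 4 libraries per group.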

Additional observations from a re-analysis of the deposited data

Results flagged for a closer look

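A single value stood apart from its group. Ndufs6, a zinc-binding subunit of the N module, held 5.89 CPM in Hypoxia 2, against 1.8, 1.48 and 1.57 CPM in Hypoxia 1, 3 and 4. On the log2 scale of CPM the gap to the next library was 0.855 of the group's range, above Dixon's 95% critical value for 4 samples. Chance flags about 1 in 20 groups, and 1 of 74 groups examined (37 genes in 2 groups) was flagged. Ndufs6 was called in each of the 8 fits that left out 1 library.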

How the results depend on the processing

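Over 23 settings, 670 of 851 member results kept direction and side of the threshold, 172 lost the call and 9, in 8 members, changed sign. Complex I subunits called, 34 in the reported fit, fell to 17 without Hypoxia 1 and 2, 4 after background subtraction, and 0 with library size alone or with the background covariate, and ran from 19 to 36 when 1 library was left out. All genes called, 8653 in the reported fit, were 14689 with DESeq2, 15818 with limma-voom, 20696 with quality weights, 16708 with no filter, 4227 without Hypoxia 1 and 2, 1996 after subtraction, 1800 with library size alone and 0 with the covariate, and 1932 to 22454 when 1 library was left out. Of the calls, 48.1% were higher in the reported fit, and 35%, 34.4% and 13.5% under RLE, upper-quartile and library size scaling. The cause was not tested.

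With the covariate the log2 fold change turned to −0.94 for Ndufa12, −1.30 for Ndufb4, −0.54 for Ndufa5, −0.93 for Ndufs1, −1.61 for Ndufs5, −1.09 for Ndufs8, −0.55 for Ndufb6, −0.16 for Coq9, −1.03 for Etfa, −0.03 for Esrra, −0.07 for Gabpa, −0.69 for Yy1, −1.04 for Ppargc1a and −0.17 for Ndufb1-ps. After subtraction Timmdc1 was at −0.04. With library size alone Ndufb2 and Ndufs1 were both at −0.15 and Ppargc1a at −0.48, and Ppargc1a was at −0.18 without Hypoxia+Nitrate 1 and 4.

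Same-numbered libraries of the 2 groups had correlations of −0.182 to 0.184 in their deviations from the group means, and 3 of 8 libraries correlated best with their own number, so the numbers were not taken to pair the samples. With the replicate number as a block, 31 members and 4791 genes were called. Odorant receptors alone gave a median over background of 2.47 in Hypoxia and 93.3 in Hypoxia+Nitrate, against 2.50 and 82.2. A gene length from the files was not run, since they hold none. Depth limited members such as Ndufa1, with 7 counts in Hypoxia 3.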
